A study of Mus musculus with 2 samples.

Results

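The aminoacyl-tRNA synthetase genes were taken by symbol, as the names made of 1 capital letter, "ars" and an optional 1 or 2, together with Eprs, Farsa and Farsb. The rule found 37 of the 32285 genes listed, and it used no measured value. Of these, 20 encode the cytosolic enzymes (Aars, Cars, Dars, Eprs, Farsa, Farsb, Gars, Hars, Iars, Kars, Lars, Mars, Nars, Qars, Rars, Sars, Tars, Vars, Wars and Yars) and 17, whose symbols end in 2, the mitochondrial ones. Gars and Kars each give a cytosolic and a mitochondrial enzyme from 1 gene, and are counted here as cytosolic.

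The series deals with how T cells perceive antigen through long-lasting Erk and NFAT signals. CD8+ T cells from the spleen of mice with the genotype WT were either rested or held for 30 h on plates coated with the class I molecule H-2Db carrying a peptide. The peptide named M9C was used at 20, 2 and 0.2 pmol, and the peptide named L6F at 80 and 20 pmol. The labels give neither the age and strain of the mice nor the T cell receptor of the cells. Each of the 6 cultures was marked with its own hashtag antibody (an antibody carrying a sequence tag that shows the culture of origin), then all were sorted as live cells and run together in 1 lane of a 10x Genomics droplet platform. There was 1 culture per condition, so no difference between conditions has a replicate check, and no p-value is given. The intervals below are exact 95% intervals that cover counting error only.

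Aminoacyl-tRNA synthetases join each amino acid to its tRNA, the step that supplies ribosomes with charged tRNA. The cytosol and the mitochondrion carry separate sets of these enzymes, nearly all encoded by different nuclear genes. In the cytosol several synthetases sit together in the multisynthetase complex, held by the scaffold proteins of Aimp1, Aimp2 and Eef1e1. Many of the cytosolic genes, but as a rule not the mitochondrial ones, are listed as targets of Atf4, the transcription factor that raises amino acid supply genes when amino acids are short, and resting T cells are known to enlarge their translation machinery when they are activated.

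Levels are given as CPM, the unique molecular identifiers (UMIs, each standing for 1 captured RNA molecule) of a gene scaled to the same total of UMIs in every culture. CPM is not divided by gene length, so levels are compared between cultures and not between genes. Rested cells were much shallower than the others. They gave 755 cells with a median of 1056 UMIs and 918920 UMIs in all, against 1589 to 2477 cells, medians of 6050 to 7114 UMIs and totals of 11376897 to 16014100 in the 5 stimulated cultures. The filter of 500 genes or more and 10% mitochondrial UMIs or less left out 52.3% of rested cells and 1.43 to 3.71% of stimulated cells. Ribosomal protein genes held 33.6% of rested UMIs and 25.4 to 26.1% of stimulated UMIs, and the ribosomal-RNA-like transcript Gm42418 held 2.18% and 0.446 to 0.493%. The sum of the 6 CD8 T cell markers was 3844 CPM when rested and 1999 to 2159 CPM when stimulated, while Cd4 had 0 CPM in rested cells and at most 0.0774 CPM elsewhere. Of the other lists, gamma-delta T (411 against 54.6 to 101 CPM), macrophage or monocyte (150.2 against 2.67 to 26.2 CPM) and erythroid markers (158.9 against 2.61 to 41.1 CPM) were higher in rested cells, B cell markers were at 264 against 208 to 258 CPM with Pax5 at 0 in all 6 cultures, and the 5 NK cell markers were at 5.44 against 3.02 to 17.4 CPM. Some of these sums rest mostly on 1 gene. In rested cells Trdc held 398 CPM of the gamma-delta T sum and Lyz2 145.8 CPM of the macrophage or monocyte sum. Ighm held 240.5 CPM of the B cell sum. The part of these differences between rested and stimulated cells in the results below was not tested.

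The promoters of the members are shown first, and their part in the levels given below was not tested. RefSeq windows of 300 bases (250 before and 50 after the transcription start, GRCm38.p6) were at hand for 27 of the 37 genes, 13 cytosolic and 14 mitochondrial. The letters TGATGNAA, the core of the C/EBP-ATF response element, were looked for on both strands. They were found in 5 of the 13 cytosolic windows and in 0 of the 14 mitochondrial ones, against 3.97% of all 32851 windows. All 5 windows belonged to the 8 genes with a window that are often listed as Atf4 targets, and the 5 other cytosolic windows had 0. One match in each of these genes is shown in capitals within 30 bases written 5′ to 3′ on the strand of the gene. In Yars the first base of the match lay at position 4 from the start, in Gars at -30, in Aars at 10, in Iars at 8 and in Tars at -15, with the start base counted as 1 and the base before it as -1.
Yars, chr4:129189895-129189924, plus strand: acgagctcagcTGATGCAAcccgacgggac
Gars, chr6:55037960-55037989, plus strand: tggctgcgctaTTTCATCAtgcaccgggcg
Aars, chr8:111033840-111033869, plus strand: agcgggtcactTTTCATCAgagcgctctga
Iars, chr13:49682126-49682155, plus strand: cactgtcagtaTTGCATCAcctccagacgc
Tars, chr15:11399655-11399684, minus strand: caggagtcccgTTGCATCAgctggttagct

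The Yars match read TGATGCAA along the gene, and the other matches shown read as the reverse complement (TTGCATCA or TTTCATCA). The E-box CACGTG, a motif bound by Myc and related factors, was in 4 of 13 cytosolic windows (Farsb, Aars, Iars and Tars) and in 1 of 14 mitochondrial windows (Ears2), against 7.15% of all windows. No E-box overlapped a TGATGNAA match. Aars, Iars and Tars held both motifs. The stretch upstream of the earliest annotated start of Iars, the gene with the largest cytosolic difference, is given with its E-box in capitals; the TGATGNAA match of Iars lies 3′ of it.
Iars, chr13:49681880-49682099, plus strand: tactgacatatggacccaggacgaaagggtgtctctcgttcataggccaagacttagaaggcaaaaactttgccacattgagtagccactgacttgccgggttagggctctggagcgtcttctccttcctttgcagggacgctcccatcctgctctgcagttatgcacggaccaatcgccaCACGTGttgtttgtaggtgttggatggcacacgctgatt
A match describes the letters of a window, and no binding was measured in this series.

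The cytosolic synthetase genes were higher in all 5 stimulated cultures than in rested cells. Summed over the 20 genes they stood at 1610 CPM in rested cells (interval 1529 to 1694) and at 3150 CPM with 20 pmol M9C, 3188 CPM with 2 pmol, 3371 CPM with 0.2 pmol, 3115 CPM with 80 pmol L6F and 3257 CPM with 20 pmol L6F. The 5 stimulated sums lay close together and all lay far outside the rested interval. The 20 pmol M9C culture was 1.96-fold above rested cells (1.86 to 2.06), and the 0.2 pmol M9C culture 2.09-fold (1.99 to 2.21).

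All 20 cytosolic genes reached 10 CPM, the level set for counting a gene as measured. In the order 20, 2 and 0.2 pmol M9C, then 80 and 20 pmol L6F, 11, 12, 12, 11 and 12 of the 20 were at least 2-fold higher than in rested cells with an interval that left out equality, and 0 were lower. Among all genes measured, 16.9%, 16.7%, 16.5%, 13.5% and 14.3% were at least 2-fold higher by the same rule. With the fold left aside, the interval lay above equality for 19 of 20 genes with 20 pmol M9C and for 20 of 20 in each of the other 4 cultures, against 32.6%, 32.1%, 32%, 30.1% and 30.9% of all genes measured. Sars, which charges serine tRNA, was the exception with 20 pmol M9C, at a log2 ratio of 0.21 (-0.01 to 0.44). Under median-ratio scaling it lay below rested cells with 20 pmol M9C, at -0.09 (-0.31 to 0.14), and with 2 pmol M9C. The median log2 ratio of the 20 genes was 1.08, 1.09, 1.15, 1.09 and 1.104 in the same order, where the median of all genes measured was 0.10, 0.08, 0.09, 0.07 and 0.08. The 5 comparisons share the rested culture, so they are not independent of each other.

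Iars, the isoleucine enzyme and a member of the complex, had the largest cytosolic difference. It stood at 39.2 CPM in rested cells and at 140.1, 147.6, 158.3, 142.8 and 148.1 CPM in the stimulated cultures, in the order above. The 5 stimulated levels did not overlap the rested interval, and the log2 ratio with 20 pmol M9C was 1.84 (1.36 to 2.36). Kars, the lysine enzyme of the complex, stood at 23.9 CPM rested and at 79.1, 78.9, 75.3, 75.9 and 76.3 CPM, a log2 ratio of 1.72 (1.12 to 2.41) with 20 pmol M9C. Mars, which charges both the initiator and the elongator methionine tRNA, stood at 32.7 CPM rested and at 92.1, 87.9, 94.4, 84.1 and 85.4 CPM, a log2 ratio of 1.497 (0.98 to 2.07). These 3 genes of the complex were each low in rested cells, with 36, 22 and 30 UMIs behind the rested level, which sets the width of their intervals.

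Yars, the tyrosine enzyme, stood at 27.2 CPM rested and at 73.8, 76.6, 81.9, 77.9 and 81.8 CPM, a log2 ratio of 1.44 (0.87 to 2.07) with 20 pmol M9C. Aars, the alanine enzyme, stood at 25.03 CPM rested and at 64.3, 65.3, 70.0, 67.2 and 74.2 CPM, a log2 ratio of 1.36 (0.77 to 2.03). Both hold the TGATGNAA letters printed above, while the windows of Kars, Mars, Eprs and Sars hold no match. Tars, the threonine enzyme, stood at 93.6 CPM rested and at 224, 220.3, 230.4, 204.6 and 217.7 CPM, a log2 ratio of 1.26 (0.95 to 1.59). Nars, the asparagine enzyme, stood at 102.3 CPM rested and at 230.9, 252, 272, 243 and 264 CPM, a log2 ratio of 1.17 (0.88 to 1.49). In Yars, Aars, Tars and Nars every stimulated level was more than 2 times the rested one.

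Eprs, whose product charges both glutamate and proline tRNA and is the only such fused enzyme of the family, stood at 255.7 CPM rested and at 549, 544, 599, 504 and 537 CPM. Its log2 ratio with 20 pmol M9C was 1.103, and the interval of 0.92 to 1.297 was the narrowest of the family, since 235 rested UMIs stood behind it. Rars, the arginine enzyme of the complex, stood at 116.4 CPM rested and 242.2 to 257.7 CPM stimulated, a log2 ratio of 1.06 (0.79 to 1.36) with 20 pmol M9C. Gars, the glycine enzyme, stood at 114.3 CPM rested and 224.5 to 251.6 CPM stimulated, a log2 ratio of 0.97 (0.69 to 1.27). Gars was thus just under 2-fold with 20 pmol M9C and at or over it in the other 4 cultures.

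The smallest differences of the cytosolic set were those of Sars, Lars, Farsb and Hars. Sars stood at 185.0 CPM rested and at 214.1, 221, 243, 225.5 and 248 CPM, a log2 ratio of 0.21 (-0.01 to 0.44) with 20 pmol M9C and 0.42 (0.20 to 0.65) with 20 pmol L6F. Lars, the leucine enzyme of the complex, stood at 119.7 CPM rested and 159.9 to 192.9 CPM stimulated. Farsb, the beta subunit of the phenylalanine enzyme, stood at 65.3 CPM rested and 91.8 to 95.5 CPM stimulated, and its alpha subunit Farsa at 78.4 CPM rested and 132.0 to 137.9 CPM stimulated. The 2 subunits of 1 enzyme thus had log2 ratios of 0.50 (0.12 to 0.90) and 0.82 (0.48 to 1.18) with 20 pmol M9C, with overlapping intervals. Hars, the histidine enzyme, stood at 50.1 CPM rested and 70.6 to 84.2 CPM stimulated, and with only the 47 rested cells of 1000 genes or more, Farsa lay below rested cells in all 5 cultures and Hars in 4.

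The remaining cytosolic genes lay between these. Wars, the tryptophan enzyme, which interferon is known to induce, stood at 21.8 CPM rested and 48.4 to 56.7 CPM stimulated, and Cars, the cysteine enzyme, at 30.5 CPM and 69.1 to 82.8 CPM. Vars, the valine enzyme, stood at 144.7 CPM rested and 248 to 266 CPM stimulated, Dars, the aspartate enzyme, at 47.9 CPM and 85.5 to 93.8 CPM, and Qars, the glutamine enzyme, at 35.9 CPM and 59.5 to 66.7 CPM. Vars, Dars and Qars stayed under 2-fold in all 5 cultures.

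**Figure D1:**
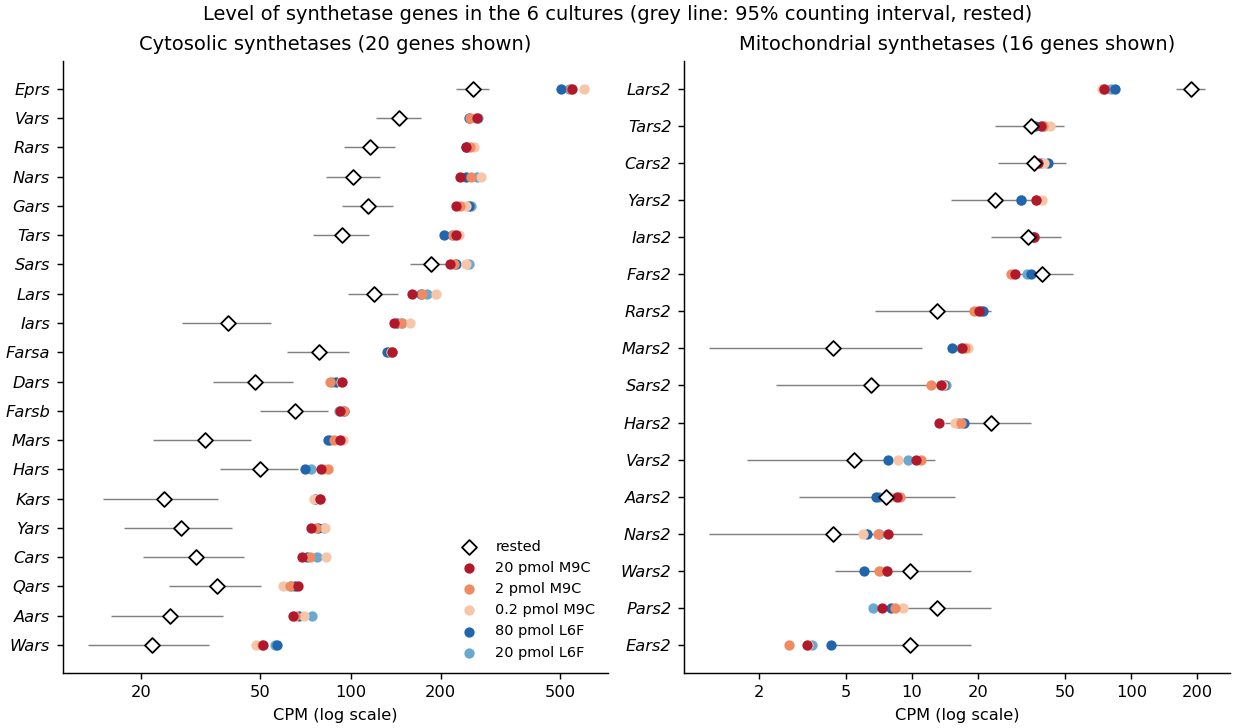
Level of the 20 cytosolic and of 16 of the 17 mitochondrial synthetase genes in CPM on a log scale, with 1 point per culture and a grey line for the 95% counting interval in rested cells. Every cytosolic gene has its 5 stimulated points to the right of the rested diamond. The stimulated points of the mitochondrial genes lie on both sides of their diamonds. The stimulated points of Lars2 lie far to the left of its own diamond in CPM, although not when counted as UMIs per cell.

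Within the cytosolic set the genes can be split by complex, by structural class of the enzyme and by known regulation. With 20 pmol M9C the 8 genes of the multisynthetase complex had a median log2 ratio of 1.08 and the 12 outside it 1.07, with 5 of 8 and 6 of 12 at least 2-fold higher. The 9 class I genes had a median of 1.18 and the 10 class II genes 0.97, with 6 and 4 at least 2-fold higher. The list of Atf4 targets was chosen with earlier results of these data known. A wider gap in medians, which was not tested, lay between the 12 genes often listed as Atf4 targets (Aars, Cars, Eprs, Gars, Iars, Lars, Mars, Nars, Sars, Tars, Wars and Yars) and the other 8. Their median log2 ratio was 1.21, 1.25, 1.36, 1.24 and 1.36 over the 5 cultures and that of the other 8 was 0.88, 0.81, 0.82, 0.82 and 0.84. At least 2-fold higher were 9, 10, 10, 9 and 10 of the 12 and 2 of the 8 in each culture, those 2 being Kars and Rars. When the genes were summed, so that the abundant ones weigh most, the gap was smaller. The 12 summed to 1047 CPM rested and 2094 CPM with 20 pmol M9C, 2.00-fold (1.87 to 2.14), and the 8 to 563 and 1057 CPM, 1.88-fold (1.72 to 2.05). The intervals overlapped in this culture, with 2 pmol M9C and in both L6F cultures. With 0.2 pmol M9C they did not, at 2.21-fold (2.07 to 2.36) for the 12 and 1.88-fold (1.72 to 2.05) for the 8.

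The mitochondrial synthetase genes did not follow the cytosolic ones. They summed to 456 CPM in rested cells (413 to 502) and to 372, 372, 380.2, 383 and 379 CPM in the stimulated cultures, 0.817-fold with 20 pmol M9C (0.739 to 0.905). Without Lars2 the other 16 summed to 269.9 CPM rested (237 to 306) and to 298, 297, 306, 298 and 298 CPM, 1.103-fold with 20 pmol M9C (0.970 to 1.26), and each of the 5 intervals of the ratio included equality. Counted as UMIs per cell in place of CPM, the mitochondrial sum was higher in stimulated cells, 2.57 against 0.555 UMIs with 20 pmol M9C, as the stimulated cells held far more UMIs of nearly every kind.

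Of the 17 mitochondrial genes, 13, 12, 12, 12 and 11 reached 10 CPM in either culture of the 5 comparisons with rested cells. By the rule of 2-fold with an interval that left out equality, 1 of them was higher in each comparison, Mars2, and 1 lower in CPM, Lars2. The backgrounds are those given above for higher genes, and 16%, 16.4%, 16.3%, 13.3% and 14% of all genes measured were at least 2-fold lower. Few rested UMIs make wide intervals, so this count is not on a par with that of the cytosolic genes. Sars2, with 6 rested UMIs, was 2.07-fold higher with 20 pmol M9C, but its interval included equality. The median log2 ratio of the measured mitochondrial genes was 0.16, 0.14, 0.22, 0.14 and 0.11, close to the median of all genes. With the fold left aside, the interval lay below equality for 2 of the measured mitochondrial genes with 20 pmol M9C (Lars2 and Hars2) and for 1, Lars2, in each of the other 4 comparisons, against 26.6%, 27.2%, 26.8%, 25.3% and 26% of all genes measured. Ears2, under 10 CPM in each of these cultures, also had an interval below equality in 4 of the 5. The interval lay above equality for 1, 2, 2, 1 and 1 of the measured mitochondrial genes in the same order. The share of all genes measured was 32.6%, 32.1%, 32%, 30.1% and 30.9%.

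Mars2, the mitochondrial methionine enzyme, stood at 4.35 CPM rested and at 16.9, 17.5, 18.02, 15.2 and 16.8 CPM in the stimulated cultures. Its log2 ratio with 20 pmol M9C was 1.96 with a wide interval of 0.58 to 3.84, because only 4 rested UMIs stood behind it. Tars2 and Cars2, the threonine and cysteine enzymes, stood at 34.8 and 35.9 CPM rested and at 36.2 to 42.4 and 35.8 to 41.5 CPM stimulated. Iars2, the isoleucine enzyme, stood at 33.7 CPM rested and 34.8 to 36.1 CPM stimulated, a log2 ratio of 0.10 (-0.43 to 0.67) with 20 pmol M9C. The 5 stimulated levels of these 3 genes all lay within the rested counting interval.

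Some mitochondrial genes stood higher in CPM in all 5 stimulated cultures but did not meet the rule of 2-fold with an interval that left out equality. Yars2, the tyrosine enzyme, stood at 23.9 CPM rested and at 36.6, 36.8, 39.2, 31.3 and 31.5 CPM, a log2 ratio of 0.71 (0.09 to 1.40) with 0.2 pmol M9C and 0.38 (-0.23 to 1.07) with 80 pmol L6F. Rars2, the arginine enzyme, stood at 13.1 CPM rested and 19.1 to 21.1 CPM stimulated, and Sars2, the serine enzyme, at 6.53 CPM and 12.3 to 14.4 CPM. Vars2, the valine enzyme, stood at 5.44 CPM rested and at 7.76 to 11.02 CPM stimulated. Sars2 was over 2-fold higher in 4 comparisons and Vars2 in 1. For Rars2, Sars2 and Vars2 the interval included equality in all 5 comparisons.

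Others were lower in CPM. Hars2, the histidine enzyme, stood at 22.9 CPM rested and at 13.3, 16.8, 15.7, 17.2 and 16.2 CPM, a log2 ratio of -0.78 (-1.44 to -0.05) with 20 pmol M9C that was 1.73 as UMIs per cell. Fars2, the phenylalanine enzyme, stood at 39.2 CPM rested and 28.1 to 35.0 CPM stimulated, and Pars2, the proline enzyme, at 13.1 CPM and 6.62 to 9.05 CPM. For Fars2 and Pars2 the interval included equality in all 5 comparisons. Ears2, the glutamate enzyme, stayed under 10 CPM in all 6 cultures, at 9.79 CPM rested and 2.75 to 4.28 CPM stimulated, a log2 ratio of -1.56 (-2.61 to -0.33) with 20 pmol M9C that changed sign as UMIs per cell. The other genes under 10 CPM, Aars2, Nars2 and Wars2, stood at 7.62, 4.35 and 9.79 CPM rested and 6.82 to 8.85, 5.98 to 7.74 and 6.02 to 7.66 CPM stimulated. Nars2 rests on 4 rested UMIs, Aars2 on 7 and Wars2 and Ears2 on 9 each.

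Lars2, the mitochondrial leucine enzyme, stood apart from the other 16. It was at 186.1 CPM in rested cells and at 74.7, 74.9, 73.8, 84.6 and 81.0 CPM in the stimulated cultures, a log2 ratio of -1.32 (-1.55 to -1.07) with 20 pmol M9C and -1.14 (-1.37 to -0.90) with 80 pmol L6F. As UMIs per cell the direction was the opposite, with a log2 ratio of 1.19 with 20 pmol M9C. The transcript Gm42418 moved the same way, from 21764 CPM rested to 4456 to 4928 CPM stimulated. The cells of each culture were also split by UMI total into 3 groups of like size. In each stimulated culture Lars2 and Gm42418 were both highest in the cells with the fewest UMIs. Lars2 stood there at 103.6 to 127.1 CPM against 60.9 to 69.3 CPM in the cells with the most, and Gm42418 at 6476 to 7332 CPM against 3679 to 3951 CPM. In rested cells Lars2 stood at 198.5, 209.4 and 164.8 CPM in the cells of lowest, middle and highest UMI total. The part of Gm42418 or of cell depth in the Lars2 result was not tested.

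Because a ratio of 2 classes within a culture does not depend on how cultures are scaled, the cytosolic sum was set against the mitochondrial sum. Rested cells held 3.53 cytosolic UMIs for each mitochondrial one, and the stimulated cultures held 8.46, 8.57, 8.86, 8.14 and 8.58. The log2 change of this ratio was 1.26 (1.095 to 1.43), 1.28 (1.11 to 1.44), 1.33 (1.16 to 1.49), 1.21 (1.04 to 1.37) and 1.28 (1.12 to 1.44). Without Lars2, left out after its values were seen, the change was 0.83 (0.62 to 1.03), 0.85 (0.64 to 1.05), 0.88 (0.68 to 1.09), 0.81 (0.60 to 1.01) and 0.87 (0.67 to 1.07). All 5 intervals stayed above 0 without it.

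The same comparison was made for each amino acid. There were 18 pairs of a cytosolic and a mitochondrial gene, with Eprs paired to Ears2 and to Pars2, and Farsa and Farsb both paired to Fars2. The cytosolic gene had the larger log2 ratio to rested cells in 15, 15, 15, 15 and 16 of the 18 pairs over the 5 cultures. The interval of the pair's difference lay above 0 in 10, 10, 10, 12 and 12 pairs and below 0 in 0 pairs. In 13 pairs both genes reached 10 CPM in some stimulated culture. Of these, 10, 10, 10, 10 and 11 had the larger ratio in the cytosolic gene, 7, 7, 7, 8 and 8 of them with an interval above 0.

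With 20 pmol M9C the widest gaps in log2 ratio were those of Eprs over Ears2, 2.66 (1.42 to 3.74), and of Eprs over Pars2, 1.95 (0.92 to 2.84). Ears2 and Pars2 stayed under 10 CPM in every stimulated culture. Iars over Iars2 differed by 1.74 (0.98 to 2.49) and Lars over Lars2 by 1.74 (1.36 to 2.11). These last 2 gaps arose differently, as Iars was high while Iars2 stayed near its rested level, and Lars was at 0.42 while Lars2 was at -1.32 in CPM. Wars over Wars2 differed by 1.59 (0.23 to 2.84), where Wars2 stayed under 10 CPM in all 6 cultures. Hars over Hars2 differed by 1.45 (0.60 to 2.27) and Farsa over Fars2 by 1.23 (0.59 to 1.85). Cars over Cars2 differed by 1.12 (0.33 to 1.92) and Tars over Tars2 by 1.104 (0.45 to 1.72). In 3 pairs the mitochondrial gene had the larger ratio, so that the difference was -0.84 for Sars over Sars2, -0.46 for Mars over Mars2 and -0.066 for Vars over Vars2, and all 3 intervals included 0. For serine the cytosolic gene was at 1.16 times its rested level with 20 pmol M9C, while the mitochondrial gene stood at 13.6 against 6.53 CPM with 6 rested UMIs.

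**Figure D2:**
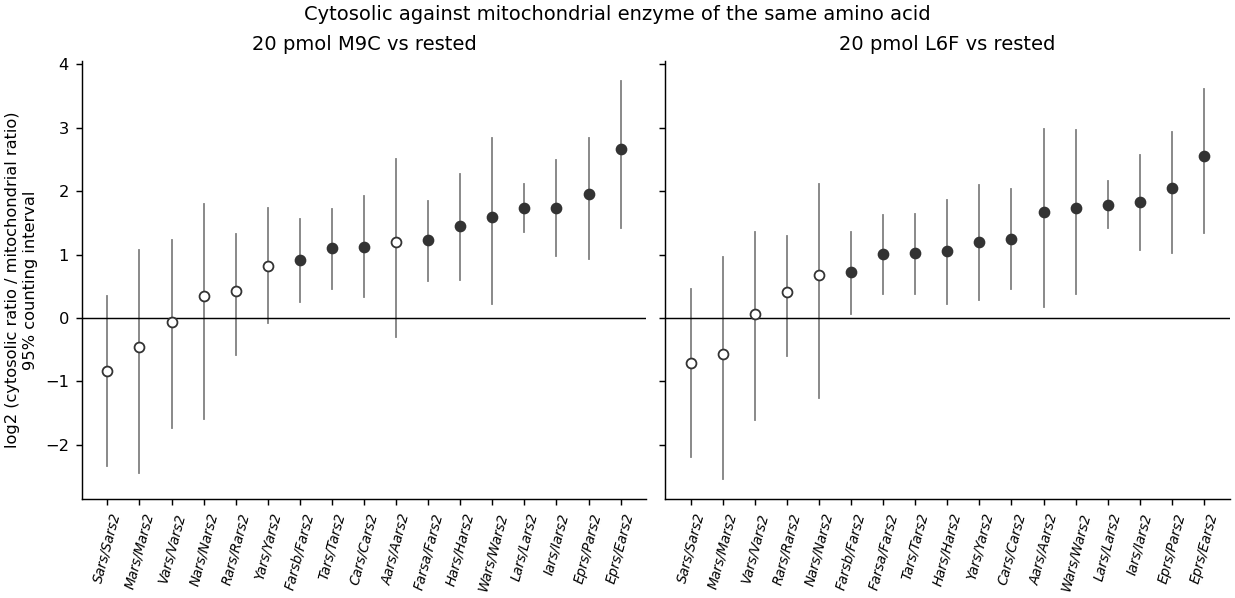
Log2 ratio to rested cells of the cytosolic gene against that of the mitochondrial gene of the same amino acid, for 17 of the 18 pairs, with 20 pmol M9C at left and 20 pmol L6F at right. At left 14 of the 17 lie on the side where the cytosolic gene has the larger ratio, and Sars, Mars and Vars lie on the other side with intervals that include equality.

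Genes that work beside the synthetases were read from 8 lists of partner genes. All 3 complex scaffold genes had an interval above equality with 20 pmol M9C, Eef1e1 at 75.02 against 20.7 CPM (3.63-fold), Aimp1 at 224 against 146.9 CPM (1.53-fold) and Aimp2 at 136.0 against 95.8 CPM (1.42-fold). Of 13 measured genes of tRNA supply and quality control, 7 passed 2-fold upward and 0 downward, against 16.9% and 16% of all genes measured, and the median log2 ratio was 1.03. Pop1, a protein of the RNase P that trims tRNA ends, was at 81.5 against 14.1 CPM (5.76-fold), and Aarsd1, an editing enzyme that clears wrongly charged alanine tRNA, at 283 against 102.3 CPM (2.77-fold). Ssb, the La protein that holds new tRNA ends, was 1.51-fold higher, and Prorsd1 was at 20.7 against 29.4 CPM with an interval that included equality. The median of these genes, 1.03, stood beside 1.08 for the cytosolic synthetases and 0.10 for all genes.

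On the mitochondrial side, 10 measured helper genes of tRNA charging had a median log2 ratio of 0.42 with 20 pmol M9C, with 1 at least 2-fold higher and 0 lower, against 16.9% and 16% of all genes measured. That gene was Gatc, a subunit of the amidotransferase that makes mitochondrial glutamine tRNA, at 12.5 against 3.26 CPM with 3 rested UMIs (log2 ratio 1.93, 0.36 to 4.23). Hsd17b10, a subunit of mitochondrial RNase P, was lower in CPM, at 75.02 against 95.8 CPM (log2 ratio -0.35, -0.67 to -0.02). Of 8 measured mitochondrial translation factors, 2 were at least 2-fold higher, the elongation factors Tufm (138 against 60.9 CPM) and Gfm1 (46.5 against 20.7 CPM), and the median was 0.55. Of the 6 cytosolic elongation factors 1 was at least 2-fold higher, Eif5a, at 3235 against 1295 CPM, and the group's median was 0.29. The interval lay above equality for 3 of the 6 and below it for 2, against 32.6% and 26.6% of all genes measured. The 2 lower in CPM were Eef1a1, which carries charged tRNA to the ribosome, at 3465 against 5664 CPM (0.612-fold) and Eef1b2 at 2277 against 2929.5 CPM (0.777-fold). Eef1g was higher, at 1976 against 1074 CPM (1.84-fold), so the elongation factors did not all go one way in CPM.

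Genes of the Atf4 and amino acid response were read in the same way. Of 13 measured with 20 pmol M9C, 8 passed 2-fold upward and 0 downward, against 16.9% and 16% of all genes measured, and the median log2 ratio was 1.15. Mthfd2, a mitochondrial folate enzyme, was at 314 against 65.3 CPM (4.804-fold) and Psat1, of serine synthesis, at 187.4 against 42.4 CPM (4.42-fold). Trib3, at 14.2 against 15.2 CPM, and Aldh18a1, at 30.0 against 22.8 CPM, had intervals that included equality. Of 7 measured amino acid transporter genes 2 were at least 2-fold higher, among them the glutamine carrier Slc1a5 at 141.8 against 66.4 CPM, and the median was 0.85. Of the 4 measured interferon-responsive genes, taken as company for Wars, Gbp2 was at 419 against 65.3 CPM (6.42-fold) and Isg15 at 5.73 against 17.4 CPM.

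Between stimulated cultures the family differed little. In the 5 comparisons of dose or peptide, 0 of the 37 members differed by 2-fold, where few other genes did. At least 2-fold higher were 0.0288% of all genes measured for 20 against 2 pmol M9C, 0.115% for 2 against 0.2 pmol, 0.272% for 20 against 0.2 pmol, 0% for 80 against 20 pmol L6F and 0.884% for 20 pmol M9C against 20 pmol L6F. At least 2-fold lower were 0.0432%, 0.0719%, 0.143%, 0% and 0.756%. The smaller differences nevertheless fell unevenly within the cytosolic set, along the line between the 12 genes often listed as Atf4 targets and the other 8. Because that list was chosen with earlier results of these data known, the split describes the pattern and is no independent support for it. Summed, the 12 stood at 2094, 2145 and 2316 CPM with 20, 2 and 0.2 pmol M9C and at 2096 and 2220 CPM with 80 and 20 pmol L6F. The other 8 stood at 1057, 1043 and 1055 CPM and at 1019 and 1037 CPM. The listed genes were lower at the higher dose of either peptide by more than counting error, the only error these intervals hold. Whether the gap exceeds the spread between cultures cannot be told with 1 culture each.

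For 20 against 0.2 pmol M9C the ratio of the 12 summed was 0.904-fold (0.889 to 0.920) and that of the 8 was 1.00-fold (0.977 to 1.03). The interval lay below equality for 8 of the 12 (Eprs, Sars, Yars, Gars, Cars, Iars, Lars and Nars) and above it for 0, against 8.27% of all genes measured below. Among the 8 others 1 was below, Rars, and 1 above, Qars, against 8.43% of all genes above. The lowest by the bound nearest equality were Lars at 159.9 against 192.9 CPM (log2 ratio -0.27, -0.36 to -0.18), Nars at 230.9 against 272 CPM (-0.24, -0.31 to -0.16) and Cars at 69.1 against 82.8 CPM (-0.26, -0.39 to -0.13). Highest was Qars at 66.7 against 59.5 CPM (0.16, 0.02 to 0.31).

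The steps between neighbouring doses were smaller. For 2 against 0.2 pmol M9C, 6 of the 12 listed genes (Eprs, Sars, Cars, Iars, Lars and Nars) had an interval below equality and 0 of the other 8, against 7.81% of all genes, and 0 of the 37 had one above it, against 5.28%. For 20 against 2 pmol, 2 of the 12 did (Lars and Nars) and 0 of the 8, against 4.25%, and Dars and Vars had an interval above equality, against 6.71% of all genes. Hars2, with log2 ratio -0.33 (-0.64 to -0.03), was the one mitochondrial gene whose interval left out equality among the M9C doses. These comparisons share cultures with each other.

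For L6F the listed genes were again lower at the higher dose. For 80 against 20 pmol the 12 summed to 0.944-fold (0.930 to 0.959) and the 8 to 0.982-fold (0.960 to 1.005). The interval lay below equality for 5 of the 12 (Eprs, Sars, Aars, Tars and Nars) and for 1 of the 8 (Vars), against 8.02% of all genes measured, and above it for 0 of 37, against 6.87%. Sars was at 225.5 against 248 CPM (log2 ratio -0.14, -0.21 to -0.07) and Nars at 243 against 264 CPM (-0.12, -0.19 to -0.05). Eprs, at 504 against 537 CPM, had a log2 ratio of -0.090 (-0.14 to -0.045).

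The 2 peptides were compared at their shared amount of 20 pmol. M9C cells had the 12 listed genes at 0.943-fold of L6F cells (0.928 to 0.958) and the other 8 at 1.02-fold (0.996 to 1.04). The interval lay below equality for 7 of the 12 (Sars, Aars, Nars, Lars, Gars, Cars and Yars) and for 0 of the 8, against 17.6% of all genes measured, and above it for 0 of the 20, against 21%. Sars was at 214.1 against 248 CPM (log2 ratio -0.21, -0.28 to -0.14), Nars at 230.9 against 264 CPM (-0.19, -0.26 to -0.12) and Gars at 224.5 against 251.6 CPM (-0.16, -0.23 to -0.10). Dars and Mars, with log2 ratios of 0.11 (-0.003 to 0.22) each, were highest among the cytosolic genes. Yars2 was the one mitochondrial gene with an interval above equality, at 36.6 against 31.5 CPM (0.22, 0.03 to 0.40). M9C cells held more UMIs each, and counted as UMIs per cell the summed cytosolic log2 ratio turned from -0.048 to 0.048, with 2 of the 12 listed genes below equality in place of 7.

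**Figure D3:**
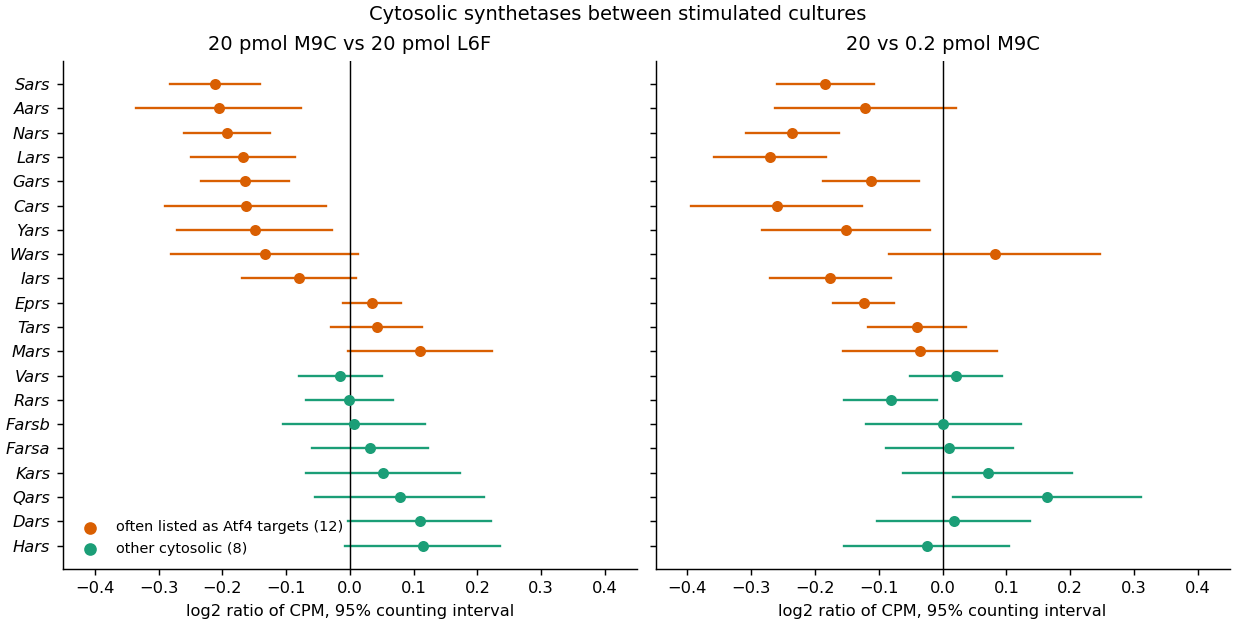
Log2 ratio of CPM with its 95% counting interval for the 20 cytosolic genes, at left 20 pmol M9C against 20 pmol L6F and at right 20 against 0.2 pmol M9C. The 12 genes often listed as Atf4 targets (orange) lie mostly below 0, with 7 and 8 intervals wholly below it, and the other 8 (green) have 0 and 1; with UMIs per cell the left panel would lie higher by 0.10.

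The list of other Atf4 and amino acid response genes was read in the same comparisons. For 20 against 0.2 pmol M9C 11 of 14 measured genes had an interval below equality and 0 above, with a median log2 ratio of -0.22. Eif4ebp1, an inhibitor of translation initiation, was at 178.5 against 278 CPM (-0.64, -0.72 to -0.56) and Asns, asparagine synthetase, at 31.4 against 41.8 CPM (-0.41, -0.60 to -0.22). Atf4 itself was at 188.2 against 206 CPM (-0.13, -0.21 to -0.05). For 80 against 20 pmol L6F 8 of 14 were below and 0 above, with a median of -0.09. For 20 pmol M9C against 20 pmol L6F 9 of 15 were below and 1 above, Sesn2, with a median of -0.24, and Eif4ebp1 was at 178.5 against 284 CPM (-0.67, -0.75 to -0.60) and Trib3 at 14.2 against 25.9 CPM (-0.86, -1.12 to -0.61). The backgrounds are those given above for each comparison.

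For the interferon genes set beside Wars the direction changed with the comparison. The interval lay above equality for 3 of 3 measured with 20 against 0.2 pmol M9C, against 8.43% of all genes measured. It lay below equality for 3 of 3 with 20 pmol M9C against 20 pmol L6F, against 17.6% of all genes measured. For 20 against 0.2 pmol M9C Gbp2 and Irf1 were higher, with log2 ratios of 0.10 (0.04 to 0.16) and 0.19 (0.08 to 0.30), and Wars was at 51.3 against 48.4 CPM. For 20 pmol M9C against 20 pmol L6F both were lower, Gbp2 at 419 against 549 CPM (-0.39, -0.44 to -0.34) and Irf1 at 118.9 against 128.4 CPM (-0.11, -0.21 to -0.02), and Wars was at 51.3 against 56.2 CPM. Both intervals of Wars included equality.

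Single cells were compared after each was thinned to the same number of UMIs. At 1000 UMIs, 464 of 755 rested cells could be used and 291 were too shallow, against 3 to 10 too shallow in each stimulated culture. A thinned rested cell held 1.5 cytosolic synthetase UMIs on average and a thinned stimulated cell 3.10 to 3.36, where the unthinned means were 1.96 and 19.5 to 24.1. Mitochondrial synthetase UMIs averaged 0.468 in thinned rested cells and 0.364 to 0.407 in thinned stimulated cells, a level of under 1 UMI from which no change is read. At 500 UMIs, where all 755 rested cells entered, the cytosolic means were 0.771 and 1.55 to 1.67.

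Among stimulated cells thinned to 3000 UMIs the cytosolic synthetases formed a single narrow range. The mean was 9.27 to 10.0 UMIs, the 5th percentile 4 or 5 and the 95th 15 to 17 in each culture. The variance was 1.21 to 1.34 times the mean, where sampling alone gives a ratio near 1, and the mitochondrial UMIs had a ratio of 1.01 to 1.09 at a mean of 1.12 to 1.17. Cells left out as too shallow numbered 89 to 220 per culture.

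The cytosolic level was set beside the RNA content of the cell. In the 3 groups of cells by UMI total, the summed cytosolic genes stood at 3001 to 3423 CPM in the lowest, 3052 to 3267 CPM in the middle and 3161 to 3422 CPM in the highest. Between the lowest and the highest group the counting intervals overlapped in the 3 M9C cultures. They did not overlap with 80 pmol L6F, at 3001 (2934 to 3069) against 3199 (3157 to 3242) CPM, or with 20 pmol L6F, at 3150 (3086 to 3214) against 3352 (3311 to 3392) CPM. In rested cells they stood at 1513, 1474 and 1746 CPM. Of the 20 cytosolic genes, 4 were higher in the highest than in the lowest group in all 5 stimulated cultures (Cars, Eprs, Hars and Lars) and 1 was lower (Wars), and of the 17 mitochondrial genes 0 were higher and 2 lower (Lars2 and Iars2). Eprs, for example, stood at 558.7 against 536.7 CPM with 20 pmol M9C, a small gap. No share of all genes is at hand for the counts of genes higher or lower, so nothing about the family is read from them. Stimulated cells of the lowest group, with medians of 3644 to 4288 UMIs, stood at 3001 CPM or more. The highest rested group, with a median of 1365 UMIs, stood at 1746 CPM. The medians lie far apart, so these groups are not matched in depth. The part of depth in this gap was not tested.

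**Figure D4:**
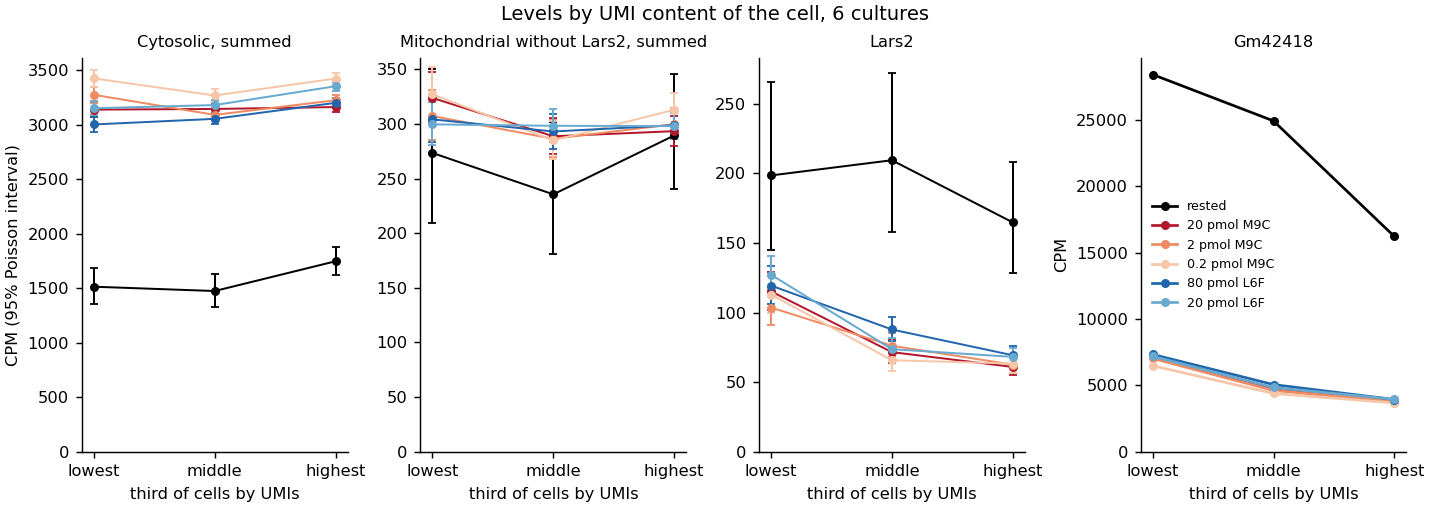
Summed CPM of the cytosolic synthetases, of the mitochondrial ones without Lars2, of Lars2 and of Gm42418 in cells split into 3 groups by UMI total within each of the 6 cultures, with 95% Poisson intervals for the synthetases. The cytosolic lines lie at 3001 to 3423 CPM in stimulated cells and end higher than they start in both L6F cultures, while Lars2 and Gm42418 both fall toward the deepest cells in the 5 stimulated cultures.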

How the data were processed

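The deposited matrix held raw UMI counts per gene and hashtag counts for 13439 barcodes of 1 lane, as the authors made them. The submitters' processing notes name Cell Ranger 6.0.1, bcl2fastq and the genome GRCm38 (mm10). The sources used here do not give the annotation or how cells were told from empty droplets. A deposited table pairs each hashtag with its condition. A cell was given the condition of its top hashtag where that had 20 counts or more and 80% or more of its hashtag counts (11671 barcodes), which leaves out cells marked by several cultures; doublets within 1 culture cannot be seen this way and doublets were not sought in another way. The 10600 cells with 500 genes or more and 10% mitochondrial UMIs or less were kept.

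Sums of UMIs over the cells of a condition were scaled to CPM, with exact Poisson intervals. Ratios have exact Clopper-Pearson 95% intervals, and the ratio of cytosolic to mitochondrial UMIs an exact conditional one; PCR duplicates are removed by the UMIs, and all intervals cover counting error only. A gene counted as measured where either condition reached 10 CPM, and as different at 2-fold with an interval that left out equality. There were 10 comparisons. Promoter windows come from RefSeq (GRCm38.p6), gene starts from GENCODE vM21. No protein sequence was used here. Python 3.11.15, numpy 2.4.6, scipy 1.17.1, pandas 2.3.3, R 4.3.3 and Seurat 5.3.0 (HTODemux at quantile 0.99, an alternative hashtag call) were used, and the interval script was tested on simulated data.

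Any member could be named, and a few single items are not reported here. Full values were given for the 10 highest and 5 lowest ratios of 20 pmol M9C against rested cells by the bound nearest equality, for amino acid pairs measured in both compartments, and for the 3 members farthest to either side between stimulated conditions; partner genes were the 2 largest ratios to either side of a list. The members, the list of Atf4 targets and the partner lists were chosen with earlier results of these data known. Alternatives changed the hashtag call, cell filter, scaling, CPM minimum and fold.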

Additional observations from a re-analysis of the deposited data

How the results depend on the processing

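Between stimulated cultures, each change of hashtag call, cell filter and denominator left the counts of listed genes below equality within 1.5 times; counted as UMIs per cell, 10 of the 12 listed genes in place of 5 were below equality for 80 against 20 pmol L6F and 2 in place of 7 for 20 pmol M9C against 20 pmol L6F, where the summed cytosolic log2 ratio was 0.048. Against rested cells, UMIs per cell put all 20 cytosolic genes at 2-fold or more in the 5 cultures, with 13, 12, 12, 12 and 11 mitochondrial genes, a summed mitochondrial log2 ratio of 2.21 with 20 pmol M9C and 2.14 with 20 pmol L6F, Lars2 at 1.19 and Hars2 at 1.73, since stimulated cells held more UMIs. The median-ratio scaling, which shifts ratios by 0.28 to 0.30 (log2), left 5, 6 and 6 cytosolic genes at 2-fold with 20 and 2 pmol M9C and 80 pmol L6F. Totals without ribosomal, mitochondrial, Malat1 and Gm42418 UMIs left 6 and 7 with 20 and 2 pmol M9C. A minimum of 1000 genes, which kept 47 rested cells, left 4 cytosolic and 0 mitochondrial genes in each of the 5 cultures, cytosolic-to-mitochondrial log2 changes of 1.02, 1.03, 1.08, 0.95 and 1.03, and Farsa at -0.064 and Hars at -0.046 with 20 pmol M9C. Mitochondrial genes at 2-fold or more numbered 4, 3, 4, 3 and 2 with no cell filter, 0 in all 5 cultures at a 50 CPM minimum, 2 with HTODemux calls (2 pmol M9C), 0 with a top hashtag of 90% (80 pmol L6F), 2 without cells above 3 times the median UMIs (0.2 pmol M9C) and 2 at 1.5-fold (2 and 0.2 pmol M9C); 1.5-fold gave 17 cytosolic genes with 20 pmol M9C. Without Lars2, chosen after seeing the data, the cytosolic-to-mitochondrial log2 changes were 0.83, 0.85, 0.88, 0.81 and 0.87. The cause of these shifts was not tested where none is named. The shares of all genes are given above for the main setting only, so counts of members under the alternatives stand here without a background. No paired analysis was possible because each condition was 1 culture. Depth limits rested cells most, where 3 counts stand for 3.26 CPM against 0.187 to 0.264 CPM in stimulated cultures, and so the mitochondrial genes with 4 to 12 rested UMIs.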
